A study of Mus musculus with 14 samples.

Results

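The nuclear genes of respiratory complexes III and IV were examined in mouse heart. They were taken as the protein-coding genes whose GENCODE M21 symbol starts with Cox or Uqcr, together with *Cyc1* and without pseudogenes. This rule uses names only and found 36 genes among 54532 identifiers, of which 21918 were protein-coding. By role they were 4 catalytic and core subunits of complex III, 5 small subunits of complex III, 10 complex IV subunits in their ubiquitous form, 7 complex IV subunits in a tissue form, 1 supercomplex factor (*Cox7a2l*) and 9 assembly factors of complex IV.

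Complex III passes electrons from ubiquinol to cytochrome c, and complex IV passes them from cytochrome c to oxygen. Both are built from proteins of the nuclear genome and of mitochondrial DNA, so the gene products of 2 genomes have to meet in the inner membrane. Heart muscle carries its own forms of several complex IV subunits (*Cox6a2*, *Cox7a1* and *Cox8b*) beside the forms found in most tissues (*Cox6a1*, *Cox7a2* and *Cox8a*). Complex III holds 1 iron-sulfur protein, the Rieske subunit *Uqcrfs1*.

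The series compares hearts of mouse lines with a mitochondrial disorder, and 14 libraries of the 3′ ends of transcripts (QuantSeq) were used. The libraries labelled YG8-800 (n = 4) come from a transgenic line, and those labelled WT (n = 4) from wild-type littermates without the transgene. KIKO-700 males (n = 3) and KIKO-700 females (n = 3) share 1 genotype, a change of the germ line that is in every cell of both sexes. Whether the labels YG8-800 and WT stand for these genotypes is uncertain. Directions therefore follow the labels, with higher or lower meaning the label YG8-800 against the label WT. The labels give the C57BL/6 strain and an age of 180 days after birth for all 14 mice. The study's text gives an older age, and this difference was not resolved. The wild-type hearts of the KIKO-700 cohort were not analysed here, so the KIKO-700 comparison is one of sex within 1 genotype.

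Total counts ranged from 5226233 to 11650840 per library, and mitochondrial DNA took 28.9% to 44.6% of them. *Xist*, an RNA of female cells, was at 48.6 and 51.5 scaled CPM (counts set to one library size, after TMM scaling) in 2 of the 4 libraries labelled YG8-800 and at 37.6 to 46.2 scaled CPM in 3 of the 4 labelled WT, whereas the other libraries of these groups were at 0 to 0.325. Summed *Ddx3y*, *Eif2s3y* and *Uty*, genes of the Y chromosome, were at 0 to 0.479 scaled CPM in the libraries high in *Xist*. They were at 56.9 to 87.9 in the others of these groups. By these RNAs 2 of the 4 libraries labelled YG8-800 and 3 of the 4 labelled WT were female, so sex was not balanced between the labels. The labels give no sex for these 8 mice, and the study describes males only. Sex labels and *Xist* matched in all 6 KIKO-700 libraries. All 10 markers of ventricular cardiomyocytes were counted in both experiments, at summed levels of 20941 to 47858 scaled CPM per library.

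Sequences upstream of 4 subunit genes are shown, with a single muscle form beside ubiquitous forms. They are the 170 bases before the start site, 5′ to 3′ on the strand of the gene, from RefSeq on GRCm38.p6, and capitals mark the letters of a searched motif on either strand. All 4 genes lie on the minus strand. *Cox6a1*, *Cox6b1* and *Cox8a* are ubiquitous forms, and *Cox8b* is the muscle partner of *Cox8a*.
Cox6a1, chr5:115348959-115349128: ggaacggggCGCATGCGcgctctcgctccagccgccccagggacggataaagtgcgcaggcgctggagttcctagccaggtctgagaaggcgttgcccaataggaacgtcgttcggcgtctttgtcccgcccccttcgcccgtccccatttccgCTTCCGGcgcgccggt
Cox6b1, chr7:30626115-30626284: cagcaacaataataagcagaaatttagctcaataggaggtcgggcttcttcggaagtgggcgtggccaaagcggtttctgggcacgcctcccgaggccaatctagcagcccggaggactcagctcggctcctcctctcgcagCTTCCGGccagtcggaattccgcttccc
Cox8a, chr19:7217617-7217786: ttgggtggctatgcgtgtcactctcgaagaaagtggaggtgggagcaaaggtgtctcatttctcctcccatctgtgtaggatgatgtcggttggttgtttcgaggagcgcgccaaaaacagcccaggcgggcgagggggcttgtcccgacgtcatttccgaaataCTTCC
Cox8b, chr7:140900447-140900616: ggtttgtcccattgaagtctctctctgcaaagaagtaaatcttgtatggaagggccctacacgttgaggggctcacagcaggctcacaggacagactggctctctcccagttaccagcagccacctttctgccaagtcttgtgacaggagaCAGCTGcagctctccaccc

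The ETS letters CCGGAAG, known as a core of sites of the GABP factor, were in the window of 10 of the 25 genes for which RefSeq windows were at hand (40.0%), against 9.93% of all 27025 genes with a window. Each window spans 250 bases before and 50 bases after the start. These 10 genes held 12 matches, with 2 each in *Cox8a* and *Cox16*. The first match in *Cox8a* begins 5 bases before the start and runs across it, so only its first 5 letters are printed, and its other match lies after the start. All 10 genes were ubiquitous subunits of complexes III and IV or assembly factors (*Cox6a1*, *Cox6b1*, *Cox8a*, *Uqcrh*, *Uqcr11*, *Cox10*, *Cox14*, *Cox15*, *Cox16* and *Cox20*), and no match was in the 4 tissue forms with a window. With 4 windows and a share of 9.93% over all genes, that absence says little. The ubiquitous forms printed above are all among the 10, whereas the windows of *Cox7c* and *Uqcrc1* lack the letters, so the printed genes do not stand for the set. The NRF1 core GCATGCG, which overlaps its own reverse complement in *Cox6a1*, was in 3 of 25 windows (*Cox6a1*, *Uqcrc1* and *Uqcr11*), against 4.01% of all genes. The E-box letters CAGCTG, a core bound by myogenic factors, were in *Cox8b* alone of the 25, against 18.29% of all genes. The YY1 core AAGATGG was in 3 of 25 windows (*Cox10*, *Cox20* and *Cox7c*), against 7.28% of all genes, and the TATA letters TATAAA in 3 (*Cox10*, *Cox7b2* and *Cox8b*), against 15.67%. Different motifs do not overlap in the printed stretches, and a match of letters describes the sequence only.

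Levels differed widely among these genes. QuantSeq reads 1 end of each transcript, so levels are CPM not divided by transcript length. The muscle form *Cox6a2* was the highest in 12 of the 14 libraries (mean 3939 CPM, range 1025 to 5428), and *Cox6c* (2042 CPM, 1408 to 2533) was above it in WT 2 and WT 3. The muscle form *Cox7a1* averaged 1497 CPM (681 to 2436) and its ubiquitous partner *Cox7a2* 1293 CPM (993 to 1833). The order of their means differed between groups, although no test of their ratio passed (below). The mean of *Cox7a1* was below that of *Cox7a2* in KIKO-700 females (1684 and 1725 CPM) and in libraries labelled WT (1069 and 1181 CPM). Within these groups KIKO-700 female 2 (1711 and 1650 CPM) and WT 4 (1520 and 1109 CPM) went the other way. *Cox7a1* was above *Cox7a2* in every library labelled YG8-800 and in every KIKO-700 male. In complex III, *Uqcrh*, the hinge protein (1169 CPM, 830 to 1474), and *Uqcrq* (1145 CPM, 755 to 1795) had the highest means, with *Uqcrh* above *Uqcrq* in 10 of 14 libraries. The catalytic subunits had less, with 292 CPM for the Rieske protein *Uqcrfs1* (185 to 557) and 156 CPM for cytochrome c1, *Cyc1* (78.6 to 208). Assembly factors ranged from 222 CPM for *Cox20*, a chaperone of the second complex IV subunit (168 to 281), to 3.83 CPM for *Cox18* (2.27 to 6.72).

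The forms named for other tissues were low. *Cox4i2*, best known from lung, averaged 2.85 CPM (0.272 to 8.09), and *Cox6b2*, known from testis, averaged 1.78 CPM (1.20 to 2.88). *Cox7b2* had 9 counts or fewer in each library, and *Cox8c*, known from testis, had 0 counts in all 14. Neither passed the filter on low counts, which left 34 of the 36 genes in each comparison.

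The first comparison asks whether these genes differ between hearts labelled YG8-800 and WT. Levels below are CPM scaled by TMM within this experiment. None of the 34 genes was called by edgeR's quasi-likelihood test at an adjusted p under 0.05, in a comparison where 0% of all 11875 genes were called. At an unadjusted p under 0.05, edgeR found 0 of the 34 genes, against 6.05% of all genes (3.04% higher and 3.01% lower), DESeq2 found 2 (5.88%, against 6.53% of all genes) and limma-voom found 5 (14.7%, against 8.5%). No gene had groups that did not overlap, against 3.67% of all genes (1.52% higher and 2.15% lower).

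Point estimates lay mostly above 0 without passing the test. The median log2 fold change was 0.37 over the 34 genes and -0.0056 over all genes tested, and 27 of the 34 were above 0. All 4 core and all 5 small subunits of complex III were above 0, with medians of 0.43 and 0.49. The ubiquitous subunits of complex IV had 9 of 10 above 0 with a median of 0.32, and the tissue forms 3 of 5 with a median of 0.55. The assembly factors had 5 of 9 above 0 with a median of 0.05. In heart tissue, fewer cells of a type and less RNA per cell cannot be told apart in these values.

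The spread was wider among libraries labelled WT in 28 of the 34 genes, by the SD of log2(scaled CPM + 1), and wider among those labelled YG8-800 in *Uqcrfs1*, *Cox5b*, *Cox4i2*, *Cox10*, *Cox11* and *Cox18*. The same count over all tested genes was not made, so a wider spread particular to these genes is not shown. Summed over the 36 genes, scaled levels were 23471, 23327, 21285 and 26286 CPM in YG8-800 libraries 1 to 4, against 12709, 11222, 18496 and 25537 CPM in WT libraries 1 to 4. After this scaling WT 1 and WT 2 were far below every library labelled YG8-800, WT 3 was nearer to them, and WT 4 lay within their range. Before TMM scaling the sums were 20573, 27358, 18810 and 22006 CPM in YG8-800 1 to 4. They were 16568, 14137, 16708 and 22053 CPM in WT 1 to 4, so WT 1 was then close to WT 3. The TMM factors were 1.31 in WT 1 and 1.26 in WT 2, against 0.906 in WT 3, so part of the distance came from the scaling. Adipocyte markers (7 listed, 4 tested) summed to 6.63 to 15.3 scaled CPM in libraries labelled YG8-800 and to 94.0, 104, 2.54 and 30.1 in WT 1 to 4. B cell markers (5 listed, 1 tested) summed to 4.18 to 14.5 in libraries labelled YG8-800 and to 34.8, 392, 9.96 and 14.7 in WT 1 to 4. Summed skeletal muscle markers (9 listed, 5 tested) were lowest in WT 2 and WT 3, as *Cox6a2* was. The sums were 352, 446, 524 and 606 in libraries labelled YG8-800 and 353, 139, 161 and 622 in WT 1 to 4. They were mostly *Ckm* and *Acta1*, at 93.1 and 38.7 scaled CPM in WT 2 and at 509 and 105 in WT 4. *Ckm* is also among the ventricular markers. *Myh1*, *Myh2*, *Myh4*, *Mylpf* and *Tnnt3* were at 4.06 scaled CPM or less in each of these libraries, so the sums say little about skeletal muscle. Atrial markers (9 of 9 tested) summed to 179, 501, 1460 and 145 in YG8-800 1 to 4 and to 484 to 1190 in libraries labelled WT, and ventricular markers were lowest in WT 2. The part of any of these cells in the levels of the subunit genes was not tested.

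**Figure D1:**
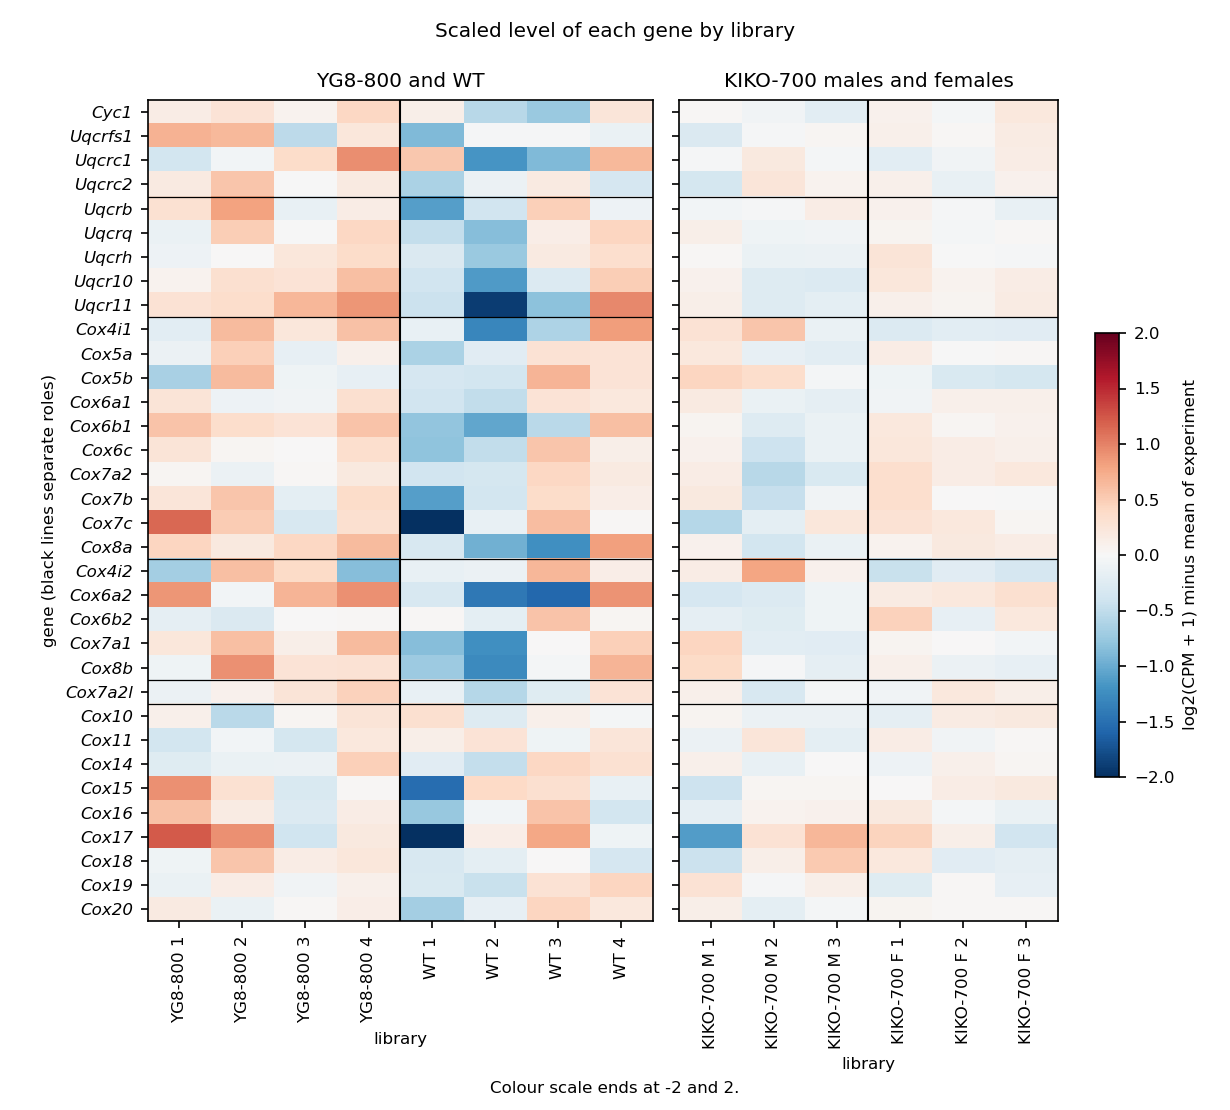
Deviation of log2(scaled CPM + 1) from the mean of the experiment for the 34 tested genes (rows, by role) in each library (columns), with YG8-800 and WT at left and KIKO-700 males and females at right. In the left panel the blue cells gather in WT 1 and WT 2, whose summed levels after TMM scaling were 12709 and 11222 CPM. The right panel is paler because the 6 KIKO-700 libraries differed less.

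In complex III, *Cyc1* (ENSMUSG00000022551, chr15:76343523-76346260, plus strand) had 163, 178, 153 and 195 scaled CPM in libraries labelled YG8-800, against 159, 99.5, 87.1 and 173 in those labelled WT. WT 2 and WT 3 were low and the groups overlapped. The log2 fold change was 0.41 (SE 0.273, edgeR adjusted p = 0.867). *Uqcrfs1* (ENSMUSG00000038462, chr13:30540308-30545362, minus strand), the iron-sulfur subunit, had 488, 475, 210 and 353 scaled CPM in libraries labelled YG8-800, against 163, 298, 298 and 274 in those labelled WT. YG8-800 3 was below 3 of the 4 WT libraries. Its log2 fold change was 0.56 (SE 0.314, edgeR adjusted p = 0.839). The core proteins *Uqcrc1* and *Uqcrc2* had log2 fold changes of 0.31 and 0.44, and the small subunits lay between 0.20 for *Uqcrh* and 0.75 for *Uqcr11*.

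*Cox6b1* (ENSMUSG00000036751, chr7:30616861-30626151, minus strand), a subunit that faces the intermembrane space, came nearest to the threshold. It had 1222, 1055, 1000 and 1219 scaled CPM in libraries labelled YG8-800, against 478, 403, 565 and 1252 in those labelled WT. Of the libraries labelled WT, WT 4 alone came up to the YG8-800 levels. The log2 fold change was 0.74 (SE 0.349, edgeR adjusted p = 0.826). Without WT 4 it was 1.22 (SE 0.263, adjusted p = 0.0412), the sole gene of the 34 called in that fit (2.94%), which called 146 genes in all (1.19%). Each library was left out in turn, and WT 4 was the one that had closed the gap, so this fit adds no separate support.

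The muscle forms showed the same split of the WT libraries. *Cox6a2* (ENSMUSG00000030785, chr7:128205435-128206387, minus strand) had 6192, 3240, 5416 and 6352 scaled CPM in libraries labelled YG8-800, against 2708, 1247, 1134 and 6256 in those labelled WT. The log2 fold change was 0.90 (SE 0.497, edgeR adjusted p = 0.839). *Cox7a1* (ENSMUSG00000074218, chr7:30184144-30186078, plus strand) had 1487, 1927, 1373 and 1960 scaled CPM in libraries labelled YG8-800, against 705, 540, 1279 and 1761 in those labelled WT. Its log2 fold change was 0.66 (SE 0.363, edgeR adjusted p = 0.839). *Cox8b* (ENSMUSG00000025488, chr7:140898945-140900446, minus strand) had 539, 1077, 692 and 701 scaled CPM in libraries labelled YG8-800, against 344, 235, 555 and 915 in those labelled WT, with a log2 fold change of 0.55 (SE 0.386, edgeR adjusted p = 0.872). In all of these genes WT 4 sat inside the YG8-800 range and WT 1 and WT 2 below it. WT 4 was also the highest library labelled WT in each of them. Without it the log2 fold changes were 1.65 for *Cox6a2* (edgeR adjusted p = 0.0592), 1.01 for *Cox7a1* (adjusted p = 0.19) and 0.99 for *Cox8b* (adjusted p = 0.207). Of the 36 genes, 6 lie on chromosome 7, including these 3 muscle forms, *Cox6b1* and *Cox6b2*.

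**Figure D2:**
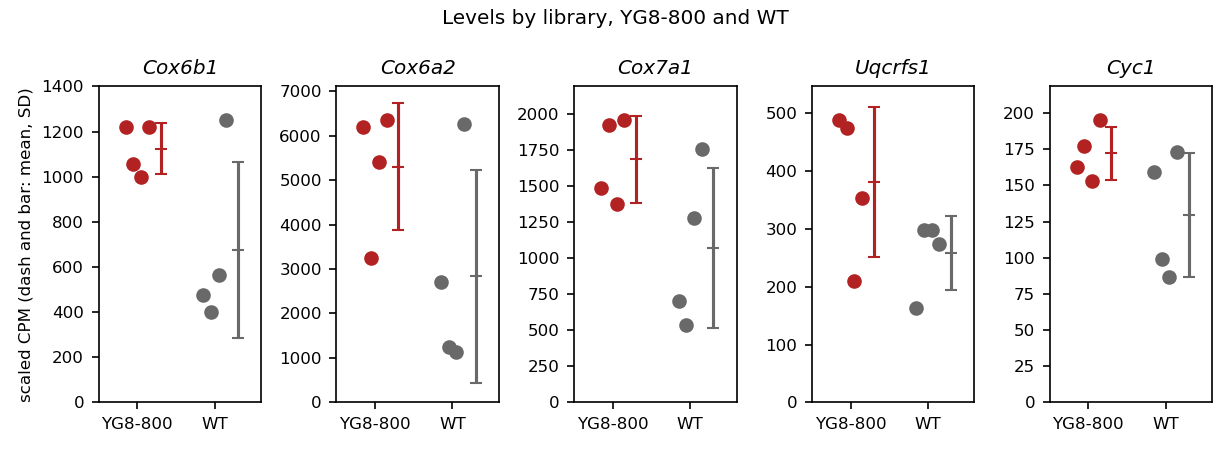
Scaled CPM of 5 subunit genes in the libraries labelled YG8-800 (left of each panel) and WT (right), one point per library, with the mean and SD beside the points (n = 4 each). WT points spread from the YG8-800 range downward, as in *Cox6a2*, where WT libraries ran from 1134 to 6256 CPM.

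The ubiquitous partners differed among themselves. *Cox8a* (ENSMUSG00000035885, chr19:7215153-7217616, minus strand) had 200, 171, 199 and 232 scaled CPM in libraries labelled YG8-800, against 119, 75.8, 63.3 and 265 in those labelled WT, with a log2 fold change of 0.62 (SE 0.387, edgeR adjusted p = 0.849) that was 1.22 without WT 4 (adjusted p = 0.0523). *Cox6a1* (ENSMUSG00000041697, chr5:115345642-115348981, minus strand) had 141, 109, 112 and 147 scaled CPM in libraries labelled YG8-800, against 89.4, 82.8, 141 and 137 in those labelled WT, with a log2 fold change of 0.18 (SE 0.261, edgeR adjusted p = 0.940). *Cox7a2* (ENSMUSG00000032330, chr9:79755361-79759878, minus strand) had 1158, 1045, 1153 and 1298 scaled CPM in libraries labelled YG8-800, against 870, 890, 1506 and 1284 in those labelled WT. Its log2 fold change of 0.03 (SE 0.280, edgeR adjusted p = 0.990) turned to -0.12 when libraries were scaled by size alone. The differences of *Cox7a2* and *Cox6a1* were smaller than 1 SE, and the groups overlapped in all 3 genes.

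*Cox4i1* (ENSMUSG00000031818, chr8:120668222-120674207, plus strand) had 733, 1319, 989 and 1267 scaled CPM in libraries labelled YG8-800, against 766, 343, 555 and 1507 in those labelled WT, with a log2 fold change of 0.44 (SE 0.399, edgeR adjusted p = 0.902) that was 0.96 without WT 4 (adjusted p = 0.209). *Cox5b* (ENSMUSG00000061518, chr1:36691449-36693681, plus strand), a zinc-binding subunit on the matrix side, had 270, 663, 399 and 380 scaled CPM in libraries labelled YG8-800, against 337, 331, 686 and 517 in those labelled WT, with a log2 fold change of -0.13 (SE 0.333, edgeR adjusted p = 0.972). It was the sole ubiquitous complex IV subunit below 0, and it turned to 0.11 without WT 3. The low tissue forms *Cox4i2* (0.325 to 2.63 scaled CPM in libraries labelled YG8-800, 1.15 to 2.75 in those labelled WT) and *Cox6b2* (1.19 to 1.74 in libraries labelled YG8-800, 1.35 to 2.97 in those labelled WT) had log2 fold changes of -0.24 (SE 0.619, edgeR adjusted p = 0.971) and -0.33 (SE 0.420, edgeR adjusted p = 0.922). At 3 to 22 counts per library these differences were not detectable.

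Among the assembly factors, *Cox17*, the copper chaperone, varied most, with 410, 332, 134 and 201 scaled CPM in libraries labelled YG8-800, against 25.0, 193, 299 and 166 in those labelled WT. Its log2 fold change was 0.66 with an SE of 0.628. *Cox10* and *Cox15*, which make heme a, had log2 fold changes of -0.06 and 0.42, and the copper factor *Cox11* had -0.31, the lowest of the assembly factors. The supercomplex factor *Cox7a2l* had 0.33.

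The other genes of the pathway gave few calls. At an unadjusted p under 0.05, 1 of 19 further complex IV assembly and expression factors was higher and none lower. Of 6 further complex III assembly factors, 1 was lower and none higher. None of 6 genes for cytochrome c, Ndufa4 and ferredoxins or of 8 regulators of nuclear respiratory genes passed in either direction. Over all genes 3.04% were higher and 3.01% lower at this threshold. *Slirp*, which binds mitochondrial mRNAs, had 104, 109, 69.5 and 103 scaled CPM in libraries labelled YG8-800, against 36.6, 45.2, 56.3 and 74.7 in those labelled WT (log2 fold change 0.86, SE 0.272, edgeR adjusted p = 0.786). *Ttc19*, a complex III assembly factor, had 13.6, 10.9, 14.1 and 15.4 scaled CPM in libraries labelled YG8-800, against 26.8, 18.9, 16.9 and 16.8 in those labelled WT (log2 fold change -0.56, SE 0.252, edgeR adjusted p = 0.816). The groups did not overlap in *Ttc19* and overlapped in *Slirp* through YG8-800 3 and WT 4. Neither gene passed the adjusted threshold.

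The second comparison asks whether the genes differ between KIKO-700 males and females. Libraries were scaled within this experiment, so levels are not set against those of the first. None of the 34 genes was called at an adjusted p under 0.05 by edgeR, DESeq2 or limma-voom, where edgeR called 0.0678% of all 11801 genes (0.0254% higher and 0.0424% lower). Each tool found 5 of the 34 genes at an unadjusted p under 0.05, which is 14.7% by edgeR against 7.14% of all genes. Of these 5 genes, 3 were higher in males (8.82%, against 3.39% of all genes) and 2 lower (5.88%, against 3.75%). Groups did not overlap in 5 of the 34 genes (14.7%), against 12.7% of all genes (5.52% higher and 7.13% lower), a share near the background.

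**Figure D3:**
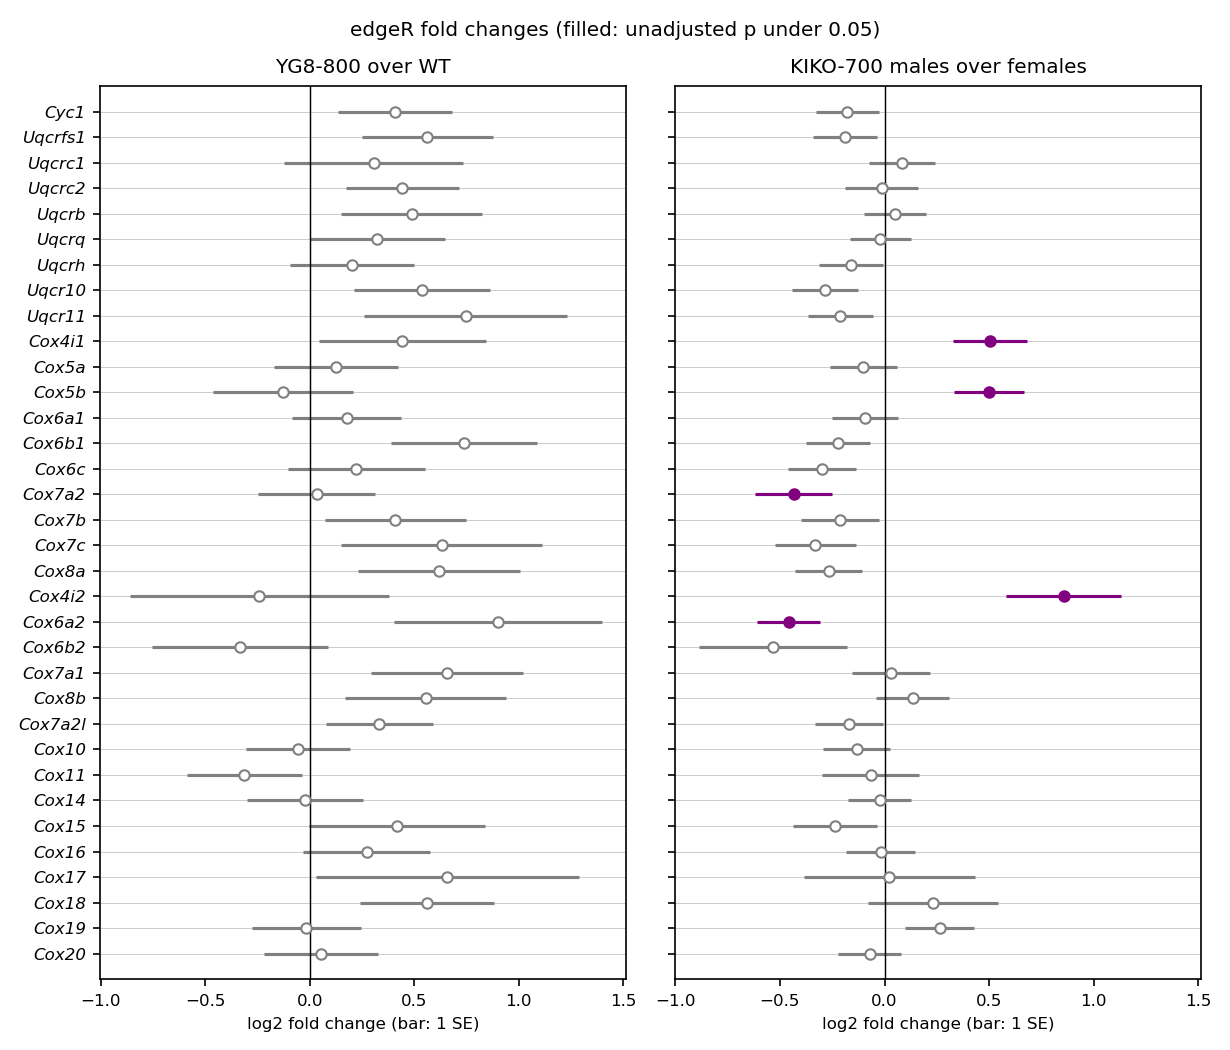
Log2 fold changes from edgeR for the 34 tested genes, with YG8-800 over WT at left and KIKO-700 males over females at right, on 1 scale, with bars of 1 SE and filled points at an unadjusted p under 0.05. Open points with wide bars fill the left panel, where 27 of 34 lie above 0, and the 5 filled points stand in the right panel on both sides of 0.

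Most estimates were small and below 0. The median log2 fold change was -0.10 over the 34 genes and 0.0059 over all genes, and 10 of the 34 were above 0. The 4 core and 5 small subunits of complex III had medians of -0.10 and -0.16 with 1 gene above 0 in each set, the ubiquitous complex IV subunits -0.22 with 2 of 10 above 0, and the assembly factors -0.02 with 3 of 9 above 0. *Cyc1* had 164, 152 and 138 scaled CPM in males, against 171, 157 and 185 in females (log2 fold change -0.18, SE 0.151, edgeR adjusted p = 0.872). *Uqcrfs1* had 206, 249 and 260 scaled CPM in males, against 271, 259 and 285 in females (log2 fold change -0.19, SE 0.152, edgeR adjusted p = 0.870). Both genes overlapped between the sexes.

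The forms of subunit 4 were higher in males at the unadjusted threshold. *Cox4i2* (ENSMUSG00000009876, chr2:152754173-152765037, plus strand) had 4.89, 8.18 and 4.66 scaled CPM in males, against 2.90, 3.53 and 3.22 in females. It stood on 39, 59 and 47 counts in males and on 23, 30 and 24 in females, and its log2 fold change was 0.86 (SE 0.275, edgeR adjusted p = 0.544). *Cox4i1* had 1721, 2069 and 1285 scaled CPM in males, against 1160, 1214 and 1205 in females (log2 fold change 0.50, SE 0.178, edgeR adjusted p = 0.603). Every male library was above every female library in both genes. Both lost the unadjusted threshold without male 2 (log2 fold changes of 0.57 and 0.34), and *Cox4i1* also without female 1 (0.48). *Cox5b* had no overlap either, with 371, 354 and 269 scaled CPM in males, against 261, 225 and 218 in females (log2 fold change 0.50, SE 0.167, edgeR adjusted p = 0.559), and lost the threshold without female 3 (0.45).

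*Cox6a2* and *Cox7a2* were lower in males at the same threshold. *Cox6a2* had 3168, 3322 and 3782 scaled CPM in males, against 4499, 4610 and 4991 in females (log2 fold change -0.46, SE 0.151, edgeR adjusted p = 0.555), with no overlap, and stayed past the threshold with any 1 library left out. *Cox7a2* had 1637, 1005 and 1191 scaled CPM in males, against 1850, 1631 and 1700 in females (log2 fold change -0.44, SE 0.184, edgeR adjusted p = 0.661). Male 1 alone overlapped the females. *Cox7a2* lost the threshold when any 1 library other than male 1 was left out (log2 fold changes of -0.48 to -0.28) and when libraries were scaled by size alone. *Cox6c*, outside the threshold, had no overlap either, with 2320, 1641 and 1997 scaled CPM in males, against 2557, 2429 and 2351 in females (log2 fold change -0.30, SE 0.163, edgeR adjusted p = 0.768). Its processed pseudogene *Cox6c2* took 1153 to 2190 counts per male library and 1993 to 2541 per female library, so the split of reads between the copies is uncertain.

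**Figure D4:**
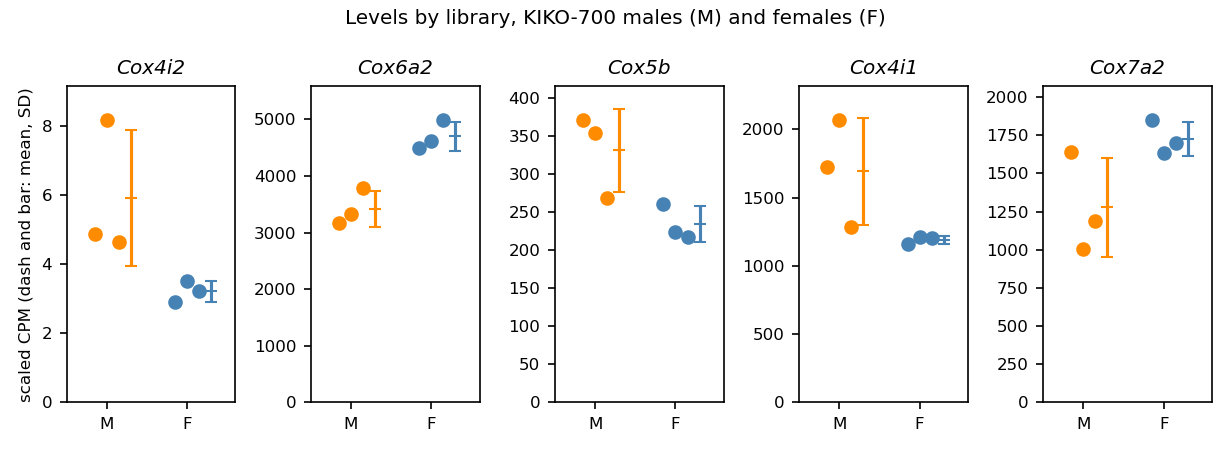
Scaled CPM of the 5 genes at an unadjusted p under 0.05 in KIKO-700 males (M, left of each panel) and females (F, right), one point per library, with the mean and SD beside the points (n = 3 each). *Cox4i2*, *Cox5b* and *Cox4i1* have every male point above the females, *Cox6a2* has every male point below them, and *Cox7a2* overlaps through the male at 1637 CPM.

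The remaining paired forms gave no call. *Cox7a1* had 2267, 1452 and 1446 scaled CPM in males, against 1753, 1692 and 1612 in females (log2 fold change 0.03, SE 0.186, edgeR adjusted p = 0.989). *Cox8b* had 651, 489 and 441 in males, against 534, 462 and 444 in females (log2 fold change 0.13, SE 0.174, edgeR adjusted p = 0.930). *Cox8a* had 209, 153 and 181 in males, against 208, 227 and 219 in females (log2 fold change -0.27, SE 0.159, edgeR adjusted p = 0.783). Male 1 was the highest male in each of these genes and the other males lay near or below the females. *Cox6a1* (log2 fold change -0.09, SE 0.157), *Cox6b1* (-0.22, SE 0.152) and *Cox6b2* (-0.53, SE 0.354) had edgeR adjusted p-values of 0.961, 0.824 and 0.822.

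KIKO-700 male 1 decided the count of calls. Without it edgeR called 864 genes at the adjusted threshold (7.06%), 4 of them among the 34 (11.8%), namely *Cox4i2* (log2 fold change 0.95, adjusted p = 0.0308), *Cox7a2* (-0.65, adjusted p = 0.00346), *Cox6c* (-0.43, adjusted p = 0.0483) and *Uqcr10* (-0.41, adjusted p = 0.0487). That fit set 2 males against 3 females. Each library was left out in turn. Male 1 was the male that overlapped the females in *Cox7a2* and *Uqcr10* and lay nearest to them in *Cox6c*, so this fit adds no separate support. Adipocyte markers (7 listed, 4 tested) summed to 8.18 to 12.5 scaled CPM in males and to 30.1 to 42.0 in females, without overlap. Fibroblast markers (9 of 9 tested) summed to 1190 to 1310 in males and to 1350 to 1570 in females, also without overlap. Single fibroblast markers went both ways, with 4 above 0, 5 below and a median log2 fold change of -0.02. Skeletal muscle markers (9 listed, 4 tested) summed to 454 to 545 in males and to 422 to 452 in females. Of these 4 markers, 1 was above 0 and 3 were below. Their sum was mostly *Ckm* and *Acta1*, at 275 and 265 scaled CPM of 545 in male 1, and *Ckm* is also among the ventricular markers. Of 8 macrophage markers 3 were lower in males at the unadjusted threshold and 0 higher, against 3.75% of all genes lower. Their sums overlapped, at 523 to 652 in males and 620 to 766 in females. The part of these cells in the subunit levels was not tested.

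Of the other pathway genes, 1 of 19 further complex IV factors was higher and 1 was lower at the same unadjusted threshold. Of 6 further complex III assembly factors, 1 was higher and none lower, and none of the cytochrome c set or of the regulators passed. Over all genes 3.39% were higher and 3.75% lower at this threshold. *Coa6*, which helps deliver copper to complex IV, had 1.88, 4.99 and 6.34 scaled CPM in males, against 2.15, 1.77 and 1.34 in females (log2 fold change 1.34, SE 0.408, edgeR adjusted p = 0.532). *Slirp* had 55.0, 51.3 and 68.2 in males, against 74.2, 77.2 and 76.4 in females (log2 fold change -0.38, SE 0.157, edgeR adjusted p = 0.650). *Ttc19* had 29.0, 25.9 and 20.6 in males, against 16.8, 17.4 and 22.0 in females (log2 fold change 0.42, SE 0.181, edgeR adjusted p = 0.663). *Slirp* alone of these 3 had groups that did not overlap.

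The muscle and ubiquitous forms of 1 subunit were next set against each other within each library, which takes out the scaling. Of 6 pairs, 5 reached 10 counts on average for both genes, and *Cox7b2* with *Cox7b* did not. Ratios are of raw counts with 0.5 added, and were tested by the exact two-sided permutation of the libraries, whose smallest p is 0.0286 for 4 against 4 and 0.10 for 3 against 3, so the KIKO-700 comparison could not pass 0.05. No pair passed in either comparison.

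*Cox6a2* held 88.9% to 98.0% of the counts of the *Cox6a* pair in every library. The log2 ratio of *Cox6a2* to *Cox6a1* was 5.46, 4.89, 5.60 and 5.43 in libraries labelled YG8-800, against 4.92, 3.91, 3.00 and 5.52 in those labelled WT. The means differed by 1.01 (exact permutation p = 0.20, adjusted p = 0.25 over 5 pairs). In KIKO-700 it was 4.09, 4.47 and 4.71 in males, against 4.84, 4.70 and 4.81 in females (difference -0.36, exact permutation p = 0.20).

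*Cox7a1* and *Cox7a2* were close to even. Their log2 ratio was 0.36, 0.88, 0.25 and 0.59 in libraries labelled YG8-800, against -0.30, -0.72, -0.24 and 0.46 in those labelled WT, a difference of 0.72 (exact permutation p = 0.0857, adjusted p = 0.214). It was 0.47, 0.53 and 0.28 in KIKO-700 males, against -0.08, 0.05 and -0.08 in females, a difference of 0.46 without overlap (exact permutation p = 0.10, the smallest this design allows). Without WT 4, the ratios of *Cox7a1* to *Cox7a2* and of *Cox6b2* to *Cox6b1* each gave an exact permutation p of 0.0286, the smallest that 4 against 3 libraries allow (adjusted p = 0.0714 over 5 pairs). In both ratios WT 4 was the sole library labelled WT within the YG8-800 range, so this adds no separate support.

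*Cox8b* was above *Cox8a* in all 14 libraries, with log2 ratios of 1.43 to 2.65 in libraries labelled YG8-800, 1.53 to 3.13 in those labelled WT, 1.28 to 1.67 in KIKO-700 males and 1.02 to 1.36 in KIKO-700 females. The differences were -0.15 (exact permutation p = 0.657) and 0.40 (exact permutation p = 0.20). *Cox4i2* and *Cox6b2* held at most 0.513% and 0.540% of the counts of their pairs. Their log2 ratios to *Cox4i1* and *Cox6b1* differed by -1.26 and -1.21 between libraries labelled YG8-800 and WT (exact permutation p = 0.20 and 0.0857) and by 0.34 and -0.27 between KIKO-700 males and females (exact permutation p = 0.20 and 0.30).

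**Figure D5:**
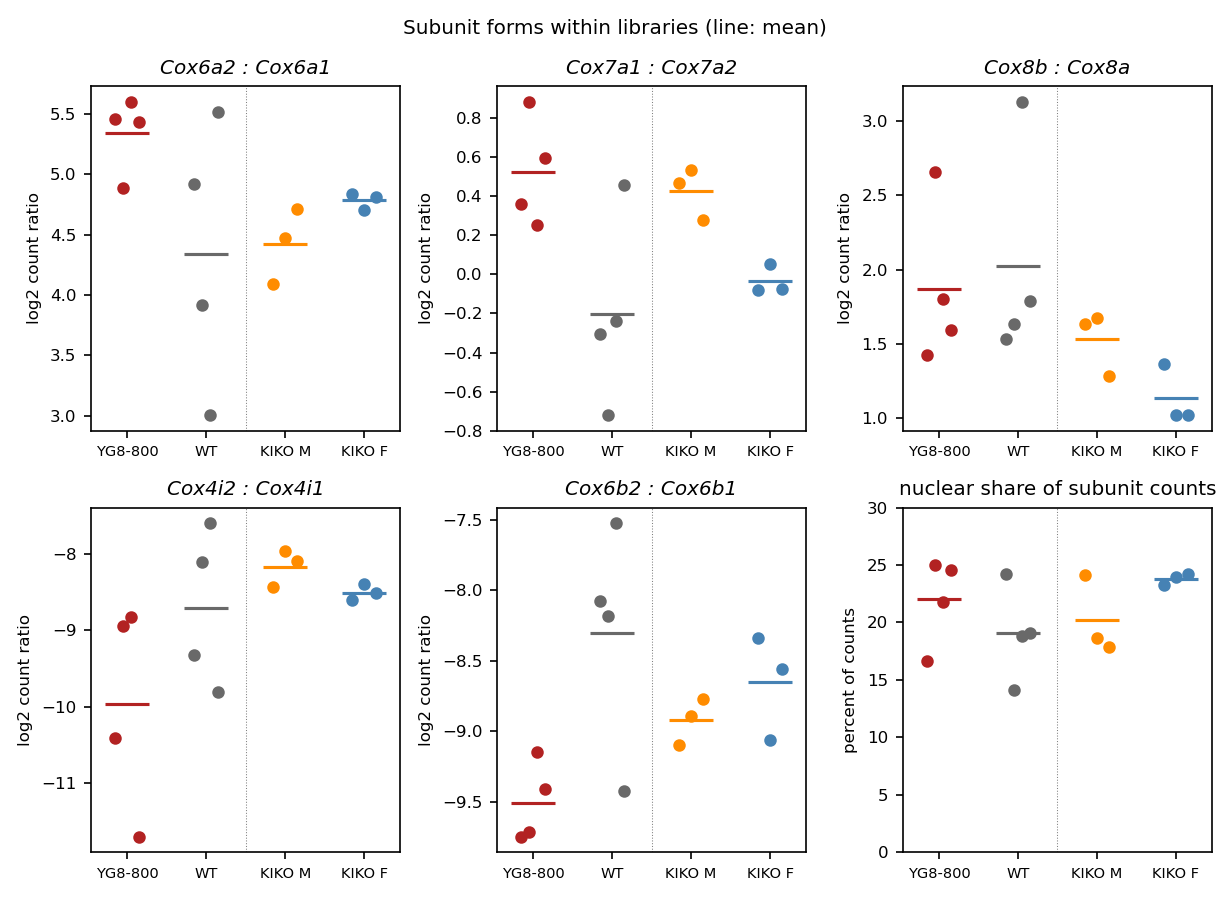
Log2 ratio of raw counts (plus 0.5) of 5 pairs of subunit forms, and the nuclear share of complex III and IV subunit counts in percent, with one point per library and a line at the mean, for YG8-800, WT, KIKO-700 males (M) and KIKO-700 females (F). Axes of the ratio panels do not start at 0. KIKO-700 males and females separate in *Cox7a1* to *Cox7a2* alone, and WT 3 stands high at 3.13 in *Cox8b* to *Cox8a*.

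The nuclear and mitochondrial parts of the complexes were compared last. The 26 nuclear subunits held 16.6%, 25.0%, 21.8% and 24.6% of all counts of nuclear and mitochondrial complex III and IV subunits in libraries labelled YG8-800, against 24.2%, 14.1%, 18.9% and 19.1% in those labelled WT. The means were 22.0% ± 3.86 and 19.1% ± 4.10 (SD, n = 4 each; exact permutation p = 0.314). *mt-Cytb* had the most counts of the mitochondrial subunits in every library, so this share depends largely on that gene. For complex IV subunits alone the nuclear share was 56.0%, 53.1%, 48.2% and 53.2% in libraries labelled YG8-800. It was 44.6%, 41.9%, 37.6% and 55.1% in those labelled WT. There WT 1 lay below every library labelled YG8-800, unlike in the share of both complexes. In KIKO-700 the share of both complexes was 24.1%, 18.6% and 17.8% in males, against 23.3%, 23.9% and 24.2% in females, a difference of -3.62 percentage points (exact permutation p = 0.30). For complex IV alone it was 63.9%, 50.3% and 51.1% in males, against 62.2%, 62.6% and 64.4% in females. Male 1 again lay with the females.

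The 4 subunits of mitochondrial DNA were also fitted by edgeR. *mt-Co2* had 756, 1631 and 1495 scaled CPM in KIKO-700 males, against 904, 755 and 729 in females (log2 fold change 0.70, SE 0.242, edgeR adjusted p = 0.594). *mt-Co3* had 3019, 6141 and 5318 in males, against 3516, 3004 and 3139 in females (log2 fold change 0.58, SE 0.222, edgeR adjusted p = 0.633). Males 2 and 3 were high and male 1 was with the females. *mt-Cytb* and *mt-Co1* had log2 fold changes of 0.12 (SE 0.155) and 0.01 (SE 0.154). Between libraries labelled YG8-800 and WT the 4 had log2 fold changes of 0.17 for *mt-Co2*, -0.28 for *mt-Co3*, 0.26 for *mt-Cytb* and 0.27 for *mt-Co1*, with edgeR adjusted p-values of 0.961, 0.929, 0.944 and 0.918. Reads of nuclear copies of mitochondrial DNA were not told apart from these genes here.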

How the data were processed

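The authors deposited whole-number counts of reads per Ensembl gene, 1 file per library, without normalization. In the submitters' processing notes the aligner is STAR 2.5.0a, the counter HTSeq 0.6.1 and the build GRCm38.p6, whereas the study's methods describe Rsubread with limma, and which made the files is not settled. Reads shared by near-identical copies (*Cox6c2*, *Cox20b* and 2 *Uqcrh* pseudogenes) may have been split by the counting. Identifiers were matched to GENCODE M21 (99.77%). Within each experiment, filterByExpr removed low genes, TMM set the scaling, and edgeR 4.0.16 (R 4.3.3) fitted a quasi-likelihood model with robust dispersion, with Benjamini and Hochberg's adjustment over all genes and a threshold of 0.05. limma 3.58.1 (voom), DESeq2 1.42.0, other scalings and filters and each library left out were alternatives. The test was tried on simulated data. The genes and lists were chosen with earlier results of these data known. Values are given for genes at an unadjusted p under 0.05 in either comparison, for paired forms, for *Cyc1* and *Uqcrfs1*, and for listed pathway genes at that threshold. *Cox6c* and *Cox17* were named after their values were seen. Replicate numbers did not pair libraries. P-values measure the spread between these mice. A result that needs a withheld item was left out.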

Additional observations from a re-analysis of the deposited data

Results flagged for a closer look

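In 82 sets of 4 libraries labelled YG8-800 or WT, 3 values stood apart from the other 3 by more than Dixon's 95% limit for a gap relative to the range, where chance marks about 1 set in 20. *Cox14*, an assembly factor, had 158 scaled CPM in YG8-800 4, against 95.7 to 104 in the other libraries labelled YG8-800. *Cox7b2* had 0.976 scaled CPM in YG8-800 4 on 9 counts, against 0 to 0.119 in the others. The log2 ratio of *Cox8b* to *Cox8a* was 3.13 in WT 3, against 1.53 to 1.79 in the other libraries labelled WT. The groups of 3 KIKO-700 libraries were too small for this limit.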

How the results depend on the processing

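In the comparison of libraries labelled YG8-800 and WT, the 34 genes had 0 adjusted calls under each alternative except the removal of WT 4, which gave 1 (range over libraries left out 0 to 1). The number higher at an unadjusted p under 0.05 was 1 with RLE factors, library size alone, at least 10 counts in every library, mitochondrial DNA and ribosomal protein genes left out, pseudogenes and Gm genes left out, or *Xist* as covariate (1.44% to 3.33% of all genes), 2 with DESeq2 (5.88%, against 3.58% of all genes), 5 with limma-voom (14.7%, against 5.57%), 9 without a filter (25.7%, against 3.86%) and 4 without WT 2 and WT 3 together (11.8%, against 2.96%). It ran from 0 to 9 over libraries left out, with 1 without WT 3 or YG8-800 3 and 9 without WT 4 (26.5%, against 8.9% of all genes). Their median log2 fold change stayed between 0.25 and 0.51 over libraries left out and was 0.19 without WT 2 and WT 3. Library size alone moved the median of all genes to -0.21 and that of the 34 genes to 0.22. Without WT 4, 2 paired ratios passed 0.05 unadjusted (range 0 to 2) and 0.0714 was the adjusted exact permutation p of each.

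In the KIKO-700 comparison the adjusted calls were 0 under each alternative except the removal of male 1, which gave 4 (range 0 to 4). The number higher was 4 without a filter (11.4%, against 3.46% of all genes). There *Cox7b2* was added, on 0, 6 and 1 counts in males and 0 in each female. The number higher ranged from 1 to 3 over libraries left out, with 1 without male 2 (2.94%, against 1.93% of all genes). The number lower was 1 with library size alone (2.94%, against 3.53% of all genes) and ranged from 1 to 8 over libraries left out, with 1 without male 2 or any female and 8 without male 1 (23.5%, against 10.4% of all genes). The median stayed between -0.16 and -0.06.

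Replicate numbers did not pair the libraries, with correlations of -0.24, 0.26, -0.04 and 0.14 (YG8-800 and WT) and -0.16, -0.04 and -0.20 (KIKO-700) between libraries of 1 number. With the number as a block, 5 genes instead of 0 were higher at an unadjusted p under 0.05 in libraries labelled YG8-800 (14.7%, against 5.04% of all genes), with 0 adjusted calls, and in KIKO-700 3 were higher and 2 lower as without it. In the block fit *Cox7a1* turned to -0.0026 in KIKO-700 males.

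Directions of single genes near 0 turned. Between libraries labelled YG8-800 and WT, leaving out single libraries gave log2 fold changes of -0.78 to 0.093 for *Cox4i2* (above 0 without WT 3, YG8-800 1 or YG8-800 4), -0.075 to 0.19 for *Cox7a2* (below 0 without WT 1, WT 2 or YG8-800 4), -0.42 to 0.11 for *Cox5b* (above 0 without WT 3 or YG8-800 1), -0.033 to 0.54 for *mt-Co2* (below 0 without WT 1) and -0.44 to 0.11 for *mt-Co3* (above 0 without WT 3), and ratio differences of -0.41 to 0.22 for *Cox8b* to *Cox8a* (above 0 without WT 3). *Cox7a2* was at -0.0063 with upper-quartile factors, -0.12 with library size alone and -0.0039 with *Xist* as covariate. Without WT 2 and WT 3 together, *Cox4i1* was at -0.078, *Cox5b* at 0.0050 and *mt-Co3* at 0.040. In KIKO-700, leaving out single libraries gave -0.22 to 0.15 for *Cox7a1* and -0.047 to 0.25 for *Cox8b* (both below 0 without male 1), and -0.076 to 0.067 for *mt-Co1* (below 0 without female 3 or male 3). *Cox7a1* was at -0.0021 with limma-voom and *mt-Co1* at -0.0037 with upper-quartile factors. The causes were not tested.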
